A study of Homo sapiens with 22 samples.

Results

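The genes described here are 36 mouse genes of blood vessel endothelium and of the signals that act on it, measured in the host-derived stroma of lung tumour xenografts. They were taken by symbol from a fixed list of pan-endothelial, tip-cell and capillary genes, receptors and ligands, and all 36 were found among the 54532 genes of the mouse table. Of these, 35 reached an FPKM (fragments scaled to gene length and sequencing depth) of 1 or more in at least 3 libraries and were tested among 14287 mouse genes. Prox1, a lymphatic regulator, did not pass, with an FPKM of 0 to 1.06 per library.

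H3122 is a human ALK-positive non-small-cell lung cancer cell line, grown here as xenografts, and bulk RNA of tumour tissue was sequenced. The hosts were NSG mice, a strain without lymphocytes and natural killer cells, and hHGF-NSG mice, which the series title calls humanized for HGF, the ligand of the MET receptor. All tumours came from the same cell line; some were therapy-naive, and the others had received alectinib, a kinase inhibitor directed at ALK, for 2 or for 6 weeks. The labels give no dose, no age of the mice and no statement on how the HGF allele is driven. The mouse table gave 3 naive, 4 2-week and 3 6-week libraries for each host; the mouse reads of NSG replicate 2 (naive) and replicate 4 (6 weeks) are not analysed here. The labels do not say that these samples came from separate animals, so p-values measure only the spread between these samples.

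Recovered mouse reads were 895826 to 5766509 per library and fewest in naive tumours. Mouse reads made up 5.5% to 13.5% of all reads in naive tumours, 8.71% to 20.2% at 2 weeks and 16.9% to 28.9% at 6 weeks. FPKM in the mouse table is relative to mouse reads alone. One library stood apart from its label in 1 gene. That of NSG naive replicate 1 held 43 human HGF reads, against 0 to 6 in the other NSG libraries of the human table and 13 to 79 in hHGF-NSG libraries. The library may be mislabelled, but the cause was not tested. It is called the library labelled NSG naive replicate 1, and the counts of members are given with and without it. Defining endothelial markers were present in every library, with Pecam1 at 22.8 to 61.1 FPKM and Cdh5 at 23.2 to 108 FPKM. Reads of the human tumour cells in the mouse table were rare: over 14 epithelial genes, mouse-table reads came to 0.0109% to 0.07% of the human-table reads per library. By single gene over all libraries the share was highest for Muc1, at 0.608%, and Esrp1, at 1.11%.

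Endothelial cells line blood vessels and are held together by adhesion molecules such as PECAM1 and VE-cadherin (Cdh5). When a vessel sprouts, a tip cell leads it toward VEGF-A, which it reads through VEGFR2 (Kdr), and it expresses Dll4, Esm1, Angpt2 and Apln, while Notch signalling started by Dll4 keeps the following stalk cells from becoming tips. In a resting vessel the receptor Tie2 (Tek), engaged by Angpt1, holds the endothelium quiet, and Angpt2 counteracts it. VEGF-A, PlGF (Pgf) and apelin are among the signals that rise when oxygen is low.

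After alectinib the endothelial and angiogenic genes fell far more often than they rose, in both hosts and at both times. A gene is called here where limma's adjusted p was below 0.05. In NSG hosts 15 members fell and 1 rose at 2 weeks, where 7.8% of all tested mouse genes were called, 3.32% higher and 4.48% lower. At 6 weeks in NSG hosts 18 fell and 2 rose, where 17.4% of all genes were called, 8.81% higher and 8.59% lower. The hHGF-NSG hosts had 9 members that fell and 1 that rose at 2 weeks, where 7.06% of all genes were called, 3.49% higher and 3.56% lower. At 6 weeks they had 10 that fell and 2 that rose, where 17.8% were called, 9.67% higher and 8.12% lower. These are 45.7%, 57.1%, 28.6% and 34.3% of the 35 members tested. The median log2 change of the members was -0.52, -0.74, -0.26 and -0.27 in that order, beside 0.03, 0.05, 0.03 and 0.06 over all tested genes. The 2-week and 6-week comparisons of a host share their naive libraries.

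When the library labelled NSG naive replicate 1 was left out, these 4 comparisons gave 16, 19, 9 and 11 members that fell and 0, 1, 1 and 2 that rose, with 7.68%, 18.2%, 7.98% and 18.8% of all genes called. In the hHGF-NSG 2-week comparison the number called depended on single naive libraries: it was 5 without hHGF-NSG naive replicate 1 and 6 without hHGF-NSG naive replicate 2. Over the comparisons against naive, between times and between hosts, 24 members were called at least once and 11 of those tested were called in none. No member was called in opposite directions in different comparisons against naive. Esm1, Apln, Pgf, Angpt2, Flt4 and Pecam1 were the 6 members lower and called in all 4 comparisons against naive.

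**Figure D1:**
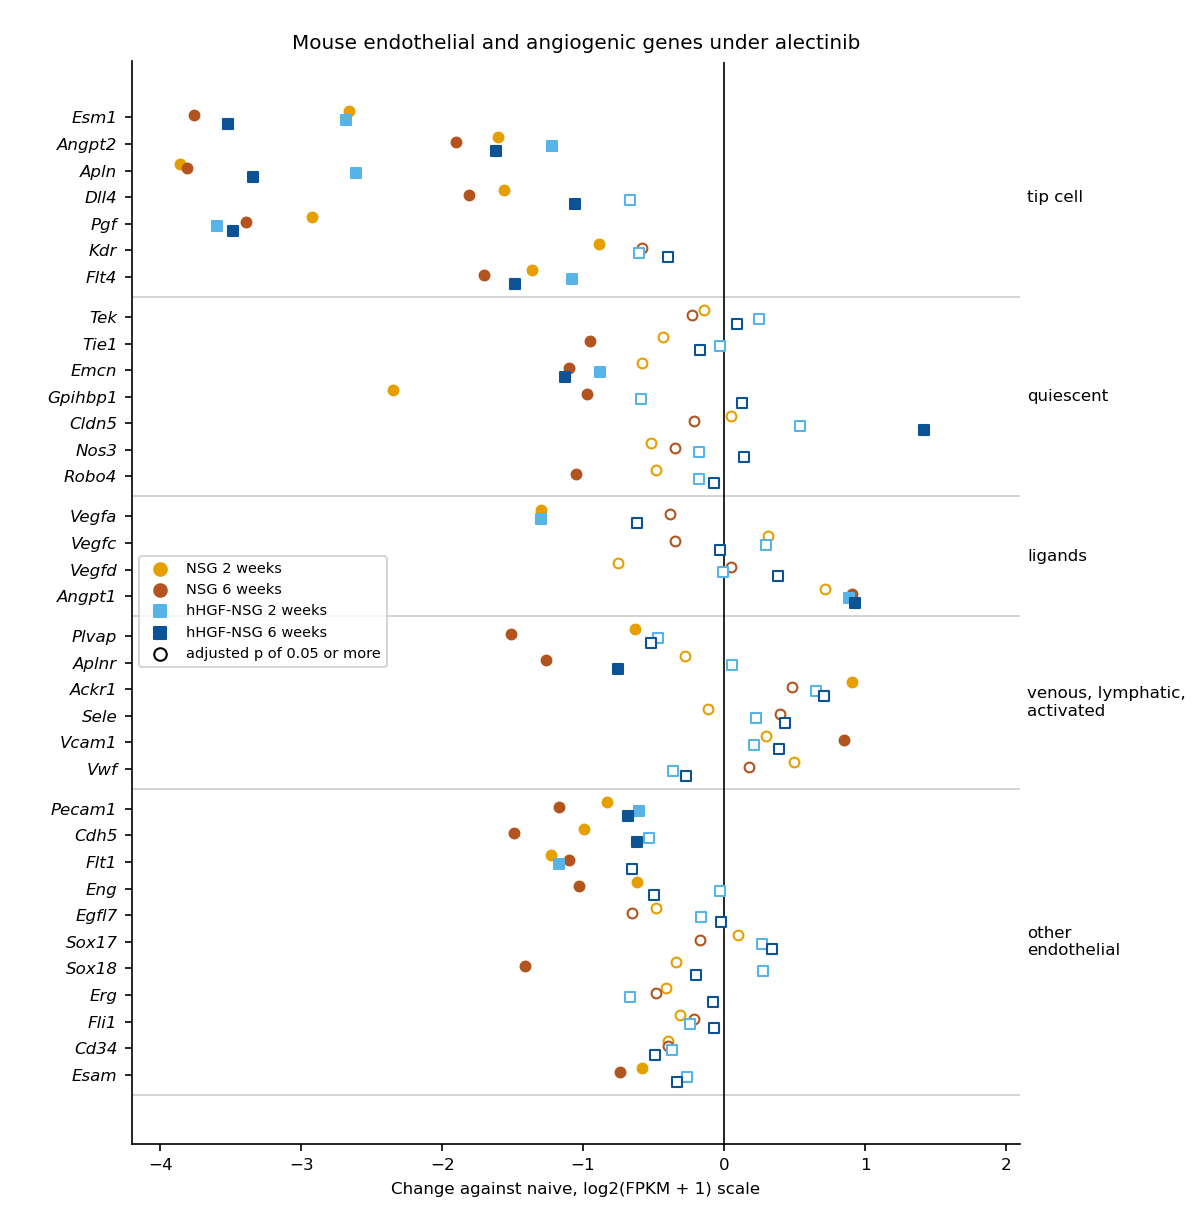
Change of each tested member against naive tumours of the same host, on the log2(FPKM + 1) scale, grouped by role (circles, NSG; squares, hHGF-NSG; filled symbols, adjusted p below 0.05 by limma; open symbols, 0.05 or more). The tip-cell genes at the top lie to the left of 0 in every comparison, with Esm1, Apln and Pgf between -2.61 and -3.86, while Tek and Cd34 have only open symbols.

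The tip-cell list holds Esm1, Angpt2, Apln, Dll4, Pgf, Kdr and Flt4. All 7 fell in NSG hosts at 2 weeks and 6 of 7 at 6 weeks; in hHGF-NSG hosts 5 of 7 fell at 2 weeks and 6 of 7 at 6 weeks. Their median log2 changes were -1.60, -1.90, -1.22 and -1.62. The quiescent list holds Tek, Tie1, Emcn, Gpihbp1, Cldn5, Nos3 and Robo4, with median changes of -0.48, -0.95, -0.18 and 0.09. In NSG hosts 1 of its 7 genes fell at 2 weeks and 4 at 6 weeks; in hHGF-NSG hosts 1 fell at 2 weeks, and at 6 weeks 1 fell and 1 rose. Both lists were chosen with results of these data known, so their counts describe these libraries.

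Esm1, which encodes the secreted proteoglycan endocan and marks tip cells, lies on mm10 chromosome 13, 113209659 to 113218098 (ENSMUSG00000042379). Its FPKM in NSG hosts was 14.5, 15.6 and 36 in naive tumours, 1.24, 3.49, 2.23 and 2.87 at 2 weeks, and 0.702, 0.960 and 0.157 at 6 weeks. Esm1 in hHGF-NSG hosts was at 38.8, 24.0 and 21.1 in naive tumours, 3.50, 1.91, 2.97 and 6.01 at 2 weeks, and 1.09, 1.43 and 1.85 at 6 weeks. Every treated library lay below every naive one, and in both hosts the 6-week libraries lay below all 2-week libraries. Against naive, Esm1 in NSG hosts changed by -2.66 at 2 weeks (SE 0.34, adjusted p = 8.11e-05). Its change at 6 weeks was -3.76 (SE 0.36, adjusted p = 2.69e-06), both on the log2 scale. The hHGF-NSG changes were -2.68 (adjusted p = 0.000111) and -3.52 (adjusted p = 6.59e-06). Mean FPKM was 8.97-fold and 36.3-fold lower in NSG hosts, though the lowest library at 6 weeks held only 1 Esm1 read. Between 2 and 6 weeks the differences of -1.09 (adjusted p = 0.0774) and -0.84 (adjusted p = 0.246) were not called, though the first was called without NSG naive replicate 4 (adjusted p = 0.0451) and with a pseudocount of 0.1, at -1.99 (adjusted p = 0.0283).

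Apln encodes apelin, a peptide secreted by sprouting endothelium, and lies on chromosome X, 48025146 to 48034853 (ENSMUSG00000037010). Naive FPKM was 29.4, 36.9 and 46.6 in NSG hosts, and the hHGF-NSG values were 54.7, 29.9 and 26.9. After treatment in NSG hosts it was 2.20, 0.489, 2.01 and 2.32 at 2 weeks and 1.99, 1.10 and 2.19 at 6 weeks. Treated hHGF-NSG libraries had 4.08, 5.88, 4.83 and 5.15 FPKM at 2 weeks and 2.50, 2.91 and 2.40 at 6 weeks. No treated library overlapped a naive one, and the 2-week libraries of hHGF-NSG hosts all lay above those of NSG hosts. Apln fell by 3.86 (SE 0.27, adjusted p = 1.71e-07) and 3.81 (adjusted p = 2.6e-07) on the log2 scale in NSG hosts, and by 2.61 (adjusted p = 1.43e-05) and 3.34 (adjusted p = 1.28e-06) in hHGF-NSG hosts.

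Pgf encodes placental growth factor, a VEGFR1 ligand, on chromosome 12, 85166635 to 85177790 (ENSMUSG00000004791). In naive tumours NSG hosts had 9.87, 14.4 and 38.1 FPKM, and hHGF-NSG hosts had 35.0, 21.4 and 15.5. In treated NSG hosts it was 2.08, 2.39, 0.345 and 1.63 at 2 weeks and 0.507, 0.198 and 2.15 at 6 weeks. In treated hHGF-NSG hosts it was 2.11, 0.518, 0.715 and 0.828 at 2 weeks and 0.928, 1.27 and 1.18 at 6 weeks. Treated and naive values did not overlap, and the treated values rested on 2 to 21 reads per library. Pgf fell by 2.92 (adjusted p = 0.000344), 3.39 (adjusted p = 7.51e-05), 3.60 (adjusted p = 5.64e-05) and 3.48 (adjusted p = 8.6e-05) in the 4 comparisons, with SE of 0.42 to 0.45. Esm1, Apln and Pgf kept their calls in the 4 comparisons against naive under every alternative run.

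Angpt2, the Tie2 ligand that endothelial cells store and release on activation, lies on chromosome 8, 18690263 to 18741562. Its FPKM in NSG hosts was 6.19, 8.87 and 10.4 in naive tumours, 1.52, 2.19, 1.72 and 3.15 at 2 weeks and 2.79, 1.40 and 0.713 at 6 weeks. Angpt2 in hHGF-NSG hosts was at 15.3, 8.81 and 9.22, then 4.15, 4.34, 3.37 and 4.39 at 2 weeks and 3.26, 2.29 and 3.04 at 6 weeks. Treated libraries all lay below naive ones. It fell by 1.60 (adjusted p = 0.000808), 1.90 (adjusted p = 0.000144), 1.22 (adjusted p = 0.00758) and 1.62 (adjusted p = 0.000555) on the log2 scale. The third call was lost without hHGF-NSG naive replicate 1, at -0.99 (adjusted p = 0.0548).

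Dll4, the Notch ligand of tip cells, was at 11.0, 22.3 and 24.3 FPKM in naive NSG hosts, 4.15, 6.30, 6.58 and 5.36 at 2 weeks and 6.21, 3.14 and 4.53 at 6 weeks. Dll4 in hHGF-NSG hosts stood at 9.87, 12.0 and 13.99, then 5.08, 7.41, 7.90 and 8.26 at 2 weeks and 3.87, 7.08 and 4.87 at 6 weeks. Naive and treated libraries did not overlap within a host. Dll4 fell by 1.56 (adjusted p = 0.0011) and 1.81 (adjusted p = 0.000225) in NSG hosts. In hHGF-NSG hosts it fell by 1.06 at 6 weeks (adjusted p = 0.0116), and was at -0.67 at 2 weeks (adjusted p = 0.129). The 6-week call was lost without hHGF-NSG 6 weeks replicate 1, at -0.90 (adjusted p = 0.0565). The Notch receptor Notch4, outside the members, changed by -1.02, -1.68, -0.91 and -1.0 in the 4 comparisons, all 4 called. For Notch1, a receptor in the same list, reads relative to library size overlapped between naive and treated libraries of each host. Both receptors were chosen after their values were seen, and the other Notch genes listed are not described here.

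**Figure D2:**
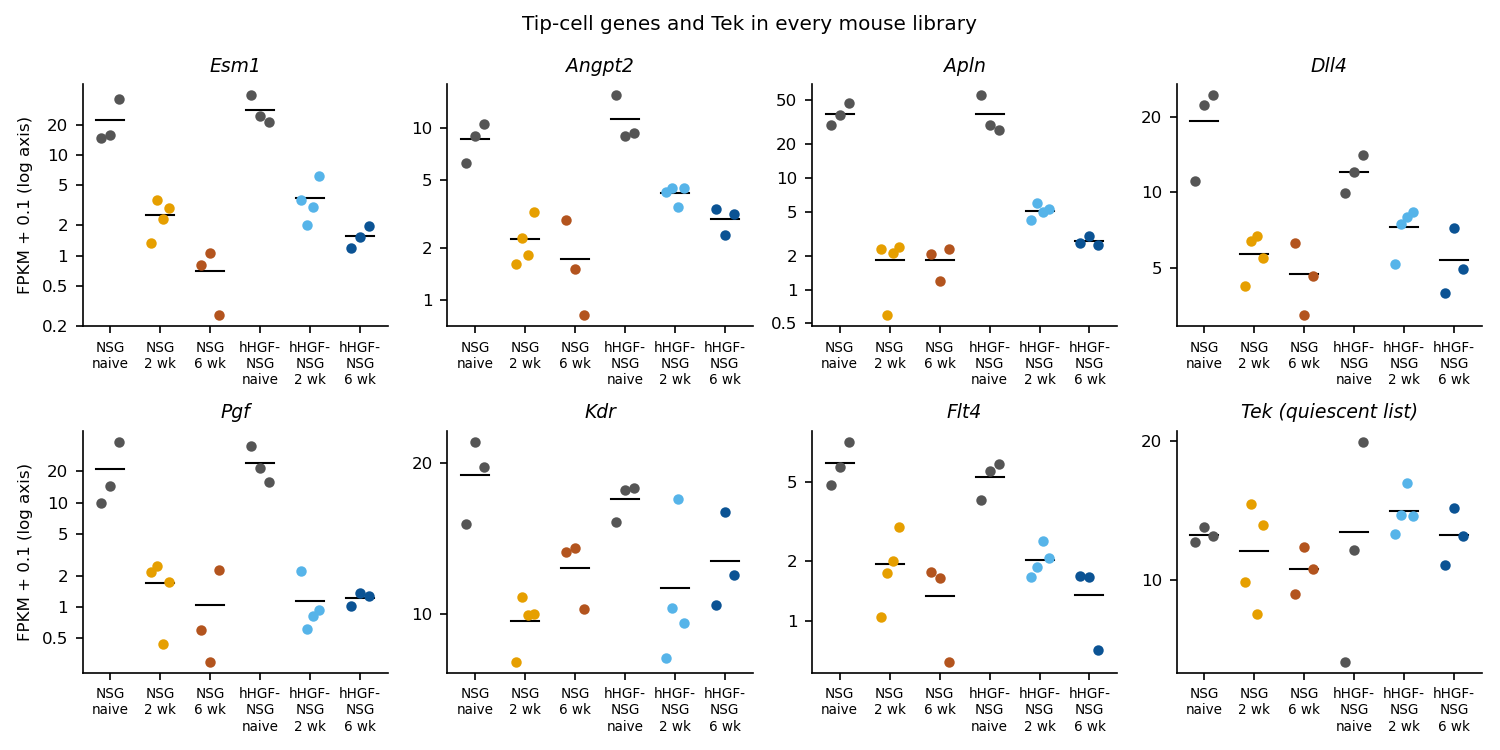
FPKM + 0.1 of the 7 tip-cell genes and of Tek in each mouse library, on log axes with a separate scale per gene (points, libraries; bars, group means). For Esm1, Angpt2, Apln, Dll4, Pgf and Flt4 every treated library lies below every naive library of its host, while for Tek naive and treated libraries lie at similar heights.

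The VEGF receptors did not fall alike. Kdr, the main signalling receptor for VEGF-A, was at 15.0, 21.9 and 19.5 FPKM in naive NSG hosts, 7.95, 10.7, 9.87 and 9.90 at 2 weeks and 13.2, 13.4 and 10.1 at 6 weeks. Kdr in hHGF-NSG hosts stood at 15.2, 17.6 and 17.7, then 8.10, 10.2, 16.8 and 9.51 at 2 weeks and 10.3, 15.8 and 11.8 at 6 weeks. Treated libraries lay below naive ones in NSG hosts and overlapped them in hHGF-NSG hosts. Only the NSG 2-week change of -0.89 was called (SE 0.20, adjusted p = 0.0111), and it was lost without NSG naive replicate 3, at -0.78 (adjusted p = 0.0581). The other changes were -0.58 (adjusted p = 0.0765), -0.60 (adjusted p = 0.0846) and -0.40 (adjusted p = 0.23). The NSG 6-week change was called without the library labelled NSG naive replicate 1, at -0.72 (adjusted p = 0.0423), and without hHGF-NSG 2 weeks replicate 3, at -0.58 (adjusted p = 0.0331). Without that last library the hHGF-NSG 2-week change was called as well, at -0.80 (adjusted p = 0.0173).

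Flt1 encodes VEGFR1, which also exists as a soluble VEGF trap. It was at 11.3, 15.1 and 16.0 FPKM in naive NSG hosts, 4.26, 4.82, 6.13 and 6.59 at 2 weeks and 7.28, 5.77 and 5.04 at 6 weeks. Flt1 in hHGF-NSG hosts stood at 16.0, 15.6 and 13.3, then 4.58, 6.12, 11.1 and 4.27 at 2 weeks and 7.40, 11.3 and 9.11 at 6 weeks. Treated libraries lay below naive ones in both hosts. Flt1 fell by 1.23 (adjusted p = 0.00357), 1.10 (adjusted p = 0.00555) and 1.17 (adjusted p = 0.0066) in the first 3 comparisons. The hHGF-NSG 6-week change was -0.65 (adjusted p = 0.0869), and it was called without hHGF-NSG 2 weeks replicate 3 (adjusted p = 0.028).

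Flt4 encodes VEGFR3, a receptor for VEGF-C found on lymphatic vessels and on tip cells. It was at 4.73, 5.89 and 7.87 FPKM in naive NSG hosts, 0.945, 1.64, 1.91 and 2.87 at 2 weeks and 1.66, 1.54 and 0.519 at 6 weeks. Flt4 in hHGF-NSG hosts stood at 3.97, 5.60 and 6.08, then 1.56, 1.76, 2.44 and 1.97 at 2 weeks and 1.59, 1.56 and 0.611 at 6 weeks. No treated library reached a naive one. Flt4 fell by 1.36 (adjusted p = 0.00333), 1.70 (adjusted p = 0.000404), 1.08 (adjusted p = 0.0184) and 1.48 (adjusted p = 0.00123). The hHGF-NSG 2-week call was lost without hHGF-NSG 2 weeks replicate 1 (adjusted p = 0.0501), without hHGF-NSG naive replicate 2 (adjusted p = 0.0622) or without hHGF-NSG naive replicate 3 (adjusted p = 0.0543). Of the other lymphatic markers tested, Lyve1, which macrophages also express, fell by 1.85, 2.37, 1.53 and 1.25, and Pdpn, which fibroblasts share, was not called.

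Pan-endothelial genes fell less than the tip-cell genes. Of 17 pan-endothelial genes 4 fell at 2 weeks and 8 at 6 weeks in NSG hosts, with median changes of -0.43 and -0.65. In hHGF-NSG hosts 2 fell at 2 weeks, and at 6 weeks 3 fell and 1 rose, with medians of -0.18 and -0.17. The summed FPKM of these genes was 449.9 to 650.3 in naive NSG tumours, 369.5 to 444.2 at 2 weeks and 294.2 to 339.5 at 6 weeks. The hHGF-NSG sums were 451.4 to 522.8, 383.9 to 506.8 and 363.8 to 470.1, with overlap between naive and treated. In bulk tissue, fewer endothelial cells and less RNA per endothelial cell cannot be told apart. Nor can either be told from more RNA of other mouse cells, as FPKM is relative to mouse reads alone.

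Pecam1 was at 54.1, 61.1 and 59.5 FPKM in naive NSG hosts, 22.8, 37.6, 35.96 and 34.6 at 2 weeks and 24.5, 26.8 and 24.7 at 6 weeks. Pecam1 in hHGF-NSG hosts stood at 51.1, 52.6 and 54.8, then 29.9, 36.4, 39.3 and 33.0 at 2 weeks and 30.1, 29.0 and 39.7 at 6 weeks. The naive libraries stood well above all treated ones. It fell by 0.83 (adjusted p = 0.00291), 1.17 (adjusted p = 0.000146), 0.60 (adjusted p = 0.0275) and 0.68 (adjusted p = 0.0087). The hHGF-NSG 2-week call was lost when any of 5 hHGF-NSG libraries was left out, namely naive replicate 1, 2 or 3 or 2 weeks replicate 1 or 4, with adjusted p of up to 0.0784.

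Cdh5 was at 73.9, 87.3 and 108 FPKM in naive NSG hosts, 37.0, 45.5, 48.6 and 47.2 at 2 weeks and 37.7, 33.9 and 23.2 at 6 weeks. Cdh5 in hHGF-NSG hosts stood at 71.9, 70.9 and 68.1, then 43.9, 46.7, 63.0 and 42.3 at 2 weeks and 41.3, 50.7 and 44.2 at 6 weeks. Treated libraries did not overlap naive ones. Cdh5 fell by 0.99 (adjusted p = 0.00191) and 1.49 (adjusted p = 3.99e-05) in NSG hosts and by 0.62 (adjusted p = 0.0266) in hHGF-NSG hosts at 6 weeks. At 2 weeks in hHGF-NSG hosts its change was -0.53 (adjusted p = 0.0753), called at -0.66 without 2 weeks replicate 3 (adjusted p = 0.0394). The hHGF-NSG 6-week call was lost without hHGF-NSG 6 weeks replicate 1 or 3 or hHGF-NSG naive replicate 1 or 2, with adjusted p of up to 0.0883.

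Eng encodes endoglin, a TGF-beta co-receptor. It was at 74.2, 89.8 and 105 FPKM in naive NSG hosts, 53.7, 65.4, 54.8 and 57.2 at 2 weeks and 50.8, 49.1 and 31.8 at 6 weeks. Eng in hHGF-NSG hosts stood at 75.8, 77.7 and 77.0, then 54.8, 91.3, 75.2 and 84.7 at 2 weeks and 62.0, 50.9 and 49.6 at 6 weeks. Only the hHGF-NSG 2-week libraries overlapped naive ones. Eng fell in NSG hosts by 0.62 at 2 weeks (adjusted p = 0.0451) and 1.03 at 6 weeks (adjusted p = 0.00126) and was not called in hHGF-NSG hosts. Its 2-week call was lost without any of 12 libraries, at up to adjusted p = 0.177 without NSG naive replicate 4.

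Cd34, a sialomucin of endothelium that fibroblasts and progenitor cells also carry, was at 25.8, 35.1 and 28.9 FPKM in naive NSG hosts, 20.6, 22.5, 23.4 and 22.9 at 2 weeks and 20.4, 19.6 and 27.5 at 6 weeks. Cd34 in hHGF-NSG hosts stood at 35.8, 40.8 and 33.6, then 44.8, 23.1, 27.9 and 21.3 at 2 weeks and 22.3, 20.9 and 36.5 at 6 weeks. Except in NSG hosts at 2 weeks, at least 1 treated library overlapped naive ones. It was not called in any comparison, with changes of -0.40, -0.40, -0.37 and -0.49 and adjusted p of 0.168 to 0.329. The endothelial transcription factors Sox17, Erg and Fli1 were not called against naive either. Sox18, another such factor, was at 35.9, 65.5 and 94.2 FPKM in naive NSG hosts, 41.6, 50.4, 47.4 and 51.5 at 2 weeks and 24.3, 19.4 and 22.9 at 6 weeks. Sox18 in hHGF-NSG hosts stood at 38.2, 25.9 and 45.8, then 31.5, 43.9, 55.9 and 46.0 at 2 weeks and 27.2, 38.1 and 28.2 at 6 weeks. Only the NSG 6-week libraries lay below all their naive ones. Sox18 fell by 1.41 there (adjusted p = 0.00155), and its other changes were -0.34, 0.28 and -0.20.

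To set the genes beside a group of endothelial genes, each library was also shifted by the mean log2 level of 8 of them. These were Pecam1, Cdh5, Eng, Egfl7, Esam, Erg, Fli1 and Cd34. As other cells also carry Cd34, this scale does not isolate endothelial RNA. The shift was chosen after the data were seen. After the shift the median log2 change of all tested genes was 0.61, 0.82, 0.39 and 0.41 in the 4 comparisons, higher than before it. The share of higher against lower calls turns with the shift. On this scale 6, 6, 4 and 6 of the 7 tip-cell genes were still called lower, where 1.36%, 1.92%, 1.2% and 2.94% of all genes were lower and 44.1%, 60.9%, 18.2% and 22.6% higher, with medians of -1.02, -1.13, -0.87 and -1.27. The quiescent list had 1 lower call in NSG hosts at 2 weeks, none in NSG hosts at 6 weeks or in hHGF-NSG hosts at 2 weeks, and 1 lower and 1 higher in hHGF-NSG hosts at 6 weeks. The calls of Kdr, of Flt1 at 6 weeks, of Eng, Esam, Tie1 and Robo4, of Plvap at 2 weeks and of Gpihbp1 at 6 weeks in NSG hosts were lost, as were those of Flt4 at 2 weeks in hHGF-NSG hosts and of Aplnr. Pecam1 lost 3 of its 4 calls and kept that in NSG hosts at 6 weeks (-0.40, adjusted p = 0.0367). Cdh5 lost its calls in NSG hosts at 2 weeks (adjusted p = 0.0525) and in hHGF-NSG hosts at 6 weeks (adjusted p = 0.262); both genes are among the 8. Emcn lost its calls in NSG hosts at 6 weeks (adjusted p = 0.151) and in hHGF-NSG hosts at 2 weeks (adjusted p = 0.0524) and kept that in hHGF-NSG hosts at 6 weeks, and Vwf rose by 1.08 and 0.95 in NSG hosts. Over all 35 members 9, 10, 6 and 7 were lower and 5, 7, 2 and 4 higher. The 8 genes are themselves members, so the median over all members, then 0.06, 0.03, 0.10 and 0.08, lies near 0 by construction and is given as a description.

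Without reference to other genes, the mean log2(FPKM + 1) of the tip-cell list minus that of the quiescent list separated naive from treated libraries in both hosts. For NSG tumours the difference ranged from -0.55 to 0.09 in naive libraries, from -1.91 to -1.53 at 2 weeks and from -2.09 to -1.86 at 6 weeks. For hHGF-NSG tumours the range was -0.33 to 0.36 in naive libraries, -1.90 to -1.32 at 2 weeks and -2.33 to -1.88 at 6 weeks. All 14 treated libraries lay below all 6 naive ones. The mean difference from naive was -1.48 and -1.72 in NSG hosts (pooled SD 0.26 and 0.25) and -1.63 and -2.19 in hHGF-NSG hosts (pooled SD 0.31 and 0.30). Esm1 per Cdh5, a ratio of FPKM values, was 0.179 to 0.539 in naive libraries and 0.00675 to 0.142 in treated ones. Since the lists were chosen with results known, no p is given for these sums.

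**Figure D3:**
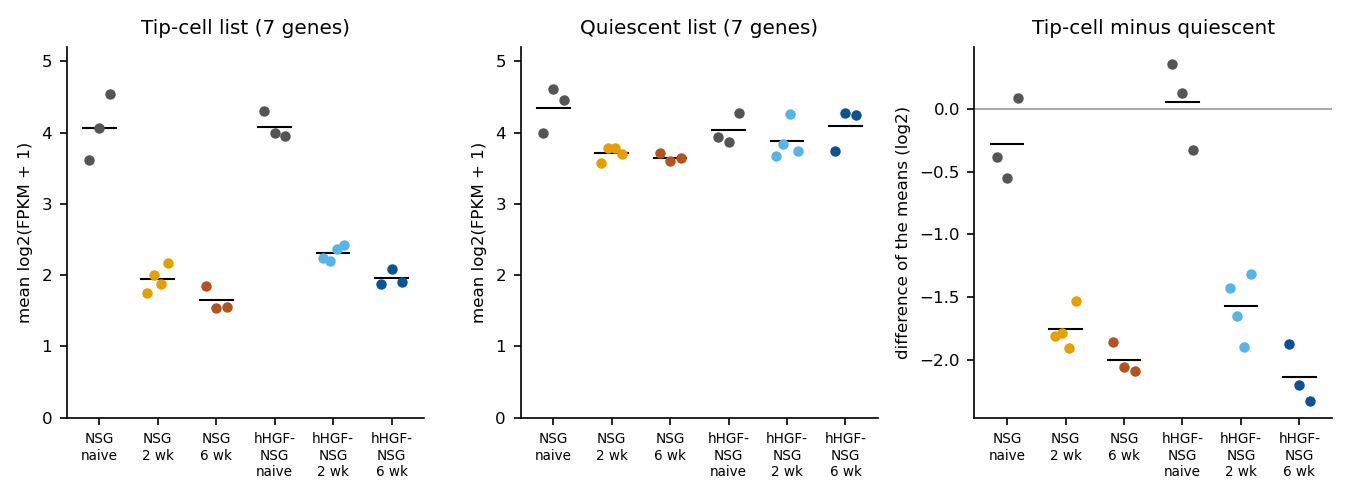
Mean log2(FPKM + 1) of the 7 tip-cell genes, of the 7 quiescent genes, and the difference of the means, in each mouse library (points, libraries; bars, group means). The tip-cell means lie at 3.61 to 4.54 in naive and 1.54 to 2.42 in treated libraries, and in NSG hosts the quiescent means lie at 3.99 to 4.61 in naive and, all lower, 3.57 to 3.79 in treated libraries. In hHGF-NSG hosts the quiescent means overlap, at 3.87 to 4.28 in naive and 3.67 to 4.28 in treated libraries.

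Among the genes of resting endothelium, Tek was not called in any comparison. It was at 12.0, 12.9 and 12.4 FPKM in naive NSG hosts, 9.82, 14.5, 8.36 and 13.1 at 2 weeks and 9.22, 11.7 and 10.5 at 6 weeks. Tek in hHGF-NSG hosts stood at 6.57, 11.5 and 19.8, then 12.5, 13.7, 16.1 and 13.6 at 2 weeks and 10.7, 14.2 and 12.3 at 6 weeks. Naive and treated libraries overlapped except in NSG hosts at 6 weeks, where the treated libraries lay slightly lower. Its log2 changes were -0.14, -0.23, 0.25 and 0.09, with SE of 0.24 to 0.26 and adjusted p of 0.575 to 0.86. Tie1, the related orphan receptor, fell by 0.95 in NSG hosts at 6 weeks (adjusted p = 0.00848), and Robo4, which stabilises vessels, by 1.05 in the same comparison (adjusted p = 0.00288). Nos3, endothelial nitric oxide synthase, was not called in any comparison.

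Emcn encodes endomucin, a sialomucin of capillaries and veins. It was at 9.77, 18.6 and 15.9 FPKM in naive NSG hosts, 8.71, 9.82, 9.44 and 8.90 at 2 weeks and 5.99, 5.37 and 7.11 at 6 weeks. Emcn in hHGF-NSG hosts stood at 19.0, 16.5 and 11.9, then 6.28, 9.72, 8.44 and 7.66 at 2 weeks and 6.01, 5.37 and 8.50 at 6 weeks. Only the library labelled NSG naive replicate 1 overlapped a treated one, at 2 weeks. Emcn fell by 1.10 (adjusted p = 0.0019) in NSG hosts at 6 weeks and by 0.88 (adjusted p = 0.0145) and 1.13 (adjusted p = 0.00152) in hHGF-NSG hosts. Its NSG 2-week change was -0.58 (adjusted p = 0.0955), and -0.83 (adjusted p = 0.0158) when the library labelled NSG naive replicate 1 was left out. The hHGF-NSG 2-week call was lost without hHGF-NSG naive replicate 1 (adjusted p = 0.0786) or 2 (adjusted p = 0.0525).

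Gpihbp1, which carries lipoprotein lipase to the capillary lumen, fell at 2 weeks and stood higher again at 6 weeks in NSG hosts. Its FPKM was 23.8, 32.3 and 35.7 in naive NSG tumours, 5.08, 3.62, 6.93 and 5.22 at 2 weeks and 14.3, 13.5 and 17.0 at 6 weeks. In hHGF-NSG tumours it was 29.1, 15.5 and 15.4, then 8.27, 11.4, 21.9 and 11.3 at 2 weeks and 12.8, 27.6 and 26.2 at 6 weeks. The NSG groups did not overlap one another, whereas the hHGF-NSG groups did. In NSG hosts Gpihbp1 fell by 2.35 at 2 weeks (SE 0.30, adjusted p = 0.000105) and by 0.97 at 6 weeks (adjusted p = 0.0445), and from 2 to 6 weeks it rose by 1.38 (adjusted p = 0.016). The 6-week call was lost without any of 8 libraries, among them NSG naive replicate 4, at -0.86 (adjusted p = 0.137). The rise from 2 to 6 weeks was lost without NSG 2 weeks replicate 2 (adjusted p = 0.0578) or NSG 6 weeks replicate 1 (adjusted p = 0.063) or 3 (adjusted p = 0.0739).

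Cldn5, the main claudin of endothelial tight junctions, moved the other way in 1 comparison. In hHGF-NSG hosts it was at 26.2, 23.4 and 48.9 FPKM in naive tumours, 50.8, 30.1, 72.3 and 39.5 at 2 weeks and 48.9, 119.5 and 104 at 6 weeks. In NSG hosts it was at 25.3, 86.1 and 47.5, then 53.7, 51.1, 62.9 and 32.5 at 2 weeks and 55.4, 30.7 and 38.8 at 6 weeks. The 6-week hHGF-NSG libraries lay at or above the highest naive one, and the NSG groups overlapped throughout. It rose by 1.42 (SE 0.42, adjusted p = 0.025) in hHGF-NSG hosts at 6 weeks. This call was lost without hHGF-NSG 6 weeks replicate 2 (adjusted p = 0.119) or 3 (adjusted p = 0.0961), or without hHGF-NSG naive replicate 1 (adjusted p = 0.0854) or 2 (adjusted p = 0.0978).

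Plvap, which forms the diaphragms of fenestrated and tumour vessels, had the highest FPKM of the members. It was at 191, 318 and 318 FPKM in naive NSG hosts, 156, 219, 149 and 178 at 2 weeks and 104, 91.5 and 86.7 at 6 weeks. Plvap in hHGF-NSG hosts stood at 188, 187 and 247, then 152, 152, 139.6 and 148 at 2 weeks and 163, 113 and 158 at 6 weeks. All treated libraries lay below their naive ones except NSG 2 weeks replicate 2, which lay above the library labelled NSG naive replicate 1. Plvap fell by 1.51 in NSG hosts at 6 weeks (SE 0.20, adjusted p = 7.51e-05) and by 0.63 at 2 weeks (adjusted p = 0.0486). The 2-week call was lost without any of 16 libraries, at up to adjusted p = 0.185 without NSG naive replicate 3 or 4. In hHGF-NSG hosts the changes were -0.47 (adjusted p = 0.141) and -0.52 (adjusted p = 0.0832); the second was called without the library labelled NSG naive replicate 1 (adjusted p = 0.0395).

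Aplnr, the apelin receptor of venous endothelium, fell later than its ligand. In NSG hosts it was at 40.1, 47.6 and 40.1 FPKM in naive tumours, 30.0, 46.6, 24.5 and 42.7 at 2 weeks and 15.3, 14.5 and 22.7 at 6 weeks. Aplnr in hHGF-NSG hosts stood at 20.8, 25.9 and 31.5, then 19.3, 36.4, 22.3 and 32.8 at 2 weeks and 14.1, 14.7 and 15.9 at 6 weeks. At 2 weeks treated and naive libraries overlapped in both hosts, and at 6 weeks they did not. Aplnr fell by 1.26 at 6 weeks in NSG hosts (adjusted p = 0.00192) and by 0.75 in hHGF-NSG hosts (adjusted p = 0.0456), and its 2-week changes were -0.28 and 0.06. The hHGF-NSG call was lost without any of 8 libraries, at up to adjusted p = 0.146 without hHGF-NSG naive replicate 3. Of the adhesion and venous genes, Ackr1 rose by 0.91 in NSG hosts at 2 weeks (adjusted p = 0.0382), lost without NSG 2 weeks replicate 1 or 2 or NSG naive replicate 1 or 4 (adjusted p of 0.0918 to 0.152). Vcam1 rose by 0.85 in NSG hosts at 6 weeks (adjusted p = 0.0083), while Sele and Vwf were not called.

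**Figure D4:**
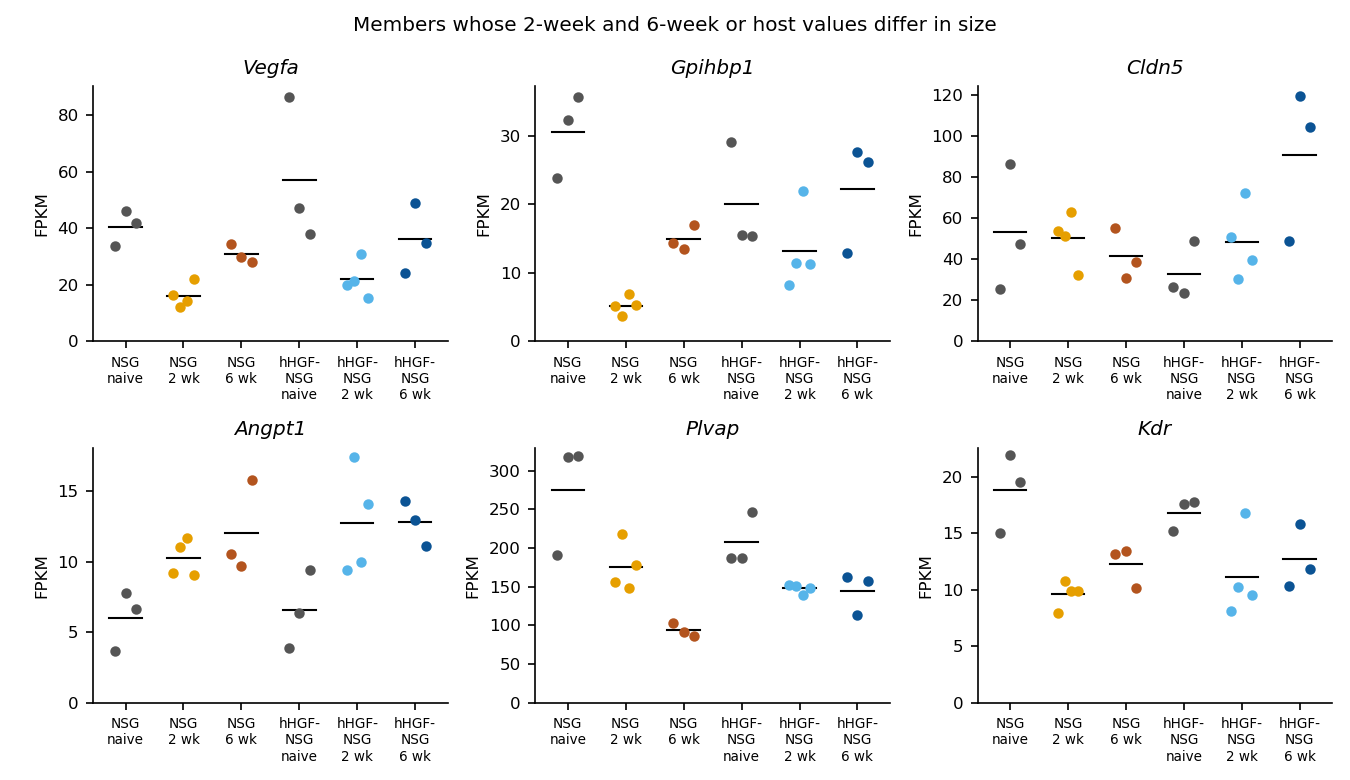
FPKM of Vegfa, Gpihbp1, Cldn5, Angpt1, Plvap and Kdr in each mouse library (points, libraries; bars, group means; each axis starts at 0). Vegfa and Gpihbp1 are lowest at 2 weeks in NSG hosts, at 12.0 to 22.0 and 3.62 to 6.93 FPKM, and Angpt1 is lowest in naive libraries.

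Of the 7 stromal ligands in the members, Apln, Pgf and Angpt2 are described above with the tip-cell genes. Mouse Vegfa was at 33.8, 46.1 and 41.7 FPKM in naive NSG hosts, 16.4, 12.0, 14.2 and 22.0 at 2 weeks and 34.5, 29.7 and 28.1 at 6 weeks. Vegfa in hHGF-NSG hosts stood at 86.6, 47.0 and 37.8, then 19.9, 21.4, 30.8 and 15.4 at 2 weeks and 24.3, 48.9 and 35.0 at 6 weeks. The 2-week libraries lay below all naive ones in both hosts, and the 6-week libraries overlapped them. Vegfa fell by 1.30 (adjusted p = 0.00722) and 1.30 (adjusted p = 0.00898) at 2 weeks, and its 6-week changes were -0.38 (adjusted p = 0.418) and -0.62 (adjusted p = 0.169). The hHGF-NSG call was lost without hHGF-NSG naive replicate 1, at -0.96 (adjusted p = 0.0636). The difference between 6 and 2 weeks was 0.91 in NSG hosts (adjusted p = 0.0745) and 0.68 in hHGF-NSG hosts (adjusted p = 0.262), and was not called; the first was called without hHGF-NSG naive replicate 1 (adjusted p = 0.0386) and by voom (0.96, adjusted p = 0.0248).

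Angpt1, the Tie2 ligand made by perivascular cells, was at 3.70, 7.81 and 6.62 FPKM in naive NSG hosts, 9.22, 11.0, 11.7 and 9.09 at 2 weeks and 10.5, 9.72 and 15.8 at 6 weeks. Angpt1 in hHGF-NSG hosts stood at 3.91, 6.36 and 9.40, then 9.41, 17.4, 9.96 and 14.1 at 2 weeks and 14.3, 13.0 and 11.1 at 6 weeks. Treated libraries lay above naive ones in both hosts. Angpt1 rose by 0.91 in NSG hosts at 6 weeks (adjusted p = 0.0314) and by 0.89 (adjusted p = 0.0471) and 0.93 (adjusted p = 0.0265) in hHGF-NSG hosts, with 0.72 (adjusted p = 0.106) in NSG hosts at 2 weeks. Each call was lost when single libraries were left out. It was 0.64 (adjusted p = 0.136) in NSG hosts at 6 weeks without the library labelled NSG naive replicate 1, and 0.61 (adjusted p = 0.23) and 0.65 (adjusted p = 0.146) in hHGF-NSG hosts without hHGF-NSG naive replicate 1. Vegfc and Vegfd, ligands of VEGFR3, were not called against naive, but Vegfd was called lower in NSG hosts at 2 weeks without NSG naive replicate 4, at -1.19 (adjusted p = 0.00718).

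Between 2 and 6 weeks of treatment 4 members were called in NSG hosts, where 3.89% of all tested genes were called, 2.39% higher and 1.5% lower. Gpihbp1 rose, and Plvap (-0.88, adjusted p = 0.0143), Aplnr (-0.98, adjusted p = 0.0263) and Sox18 (-1.07, adjusted p = 0.0263) fell. The number called ran from 0 to 6 when 1 library was left out, and each of the 4 calls was lost in turn: Gpihbp1 as given above, Plvap without any of 3 libraries (adjusted p of up to 0.0664), Aplnr without any of 4 (up to 0.12) and Sox18 without any of 6 (up to 0.103). Without NSG 2 weeks replicate 2 it was 0. In hHGF-NSG hosts limma called 0 members (1.08% of all genes), with 9 at an unadjusted p below 0.05 and 1 called by voom on recovered reads. That gene was Aplnr, at -0.81 by limma (adjusted p = 0.0977) and -0.82 by voom (adjusted p = 0.0351).

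Between hosts, limma called 0 members in naive tumours (0.042% of all genes) and 0 at 6 weeks (0.252%), with 5 and 8 members at an unadjusted p below 0.05 and 0 called by voom. At 2 weeks 1 member was called (0.371%): Apln was higher in hHGF-NSG hosts by 1.18 (SE 0.25, adjusted p = 0.0495), higher in 4 of 4 libraries than in any NSG library. This call was lost under most alternatives, including without NSG 2 weeks replicate 2, at 0.91 (adjusted p = 0.146). Without the library labelled NSG naive replicate 1, Sox18 was lower in naive hHGF-NSG tumours by 1.12 (adjusted p = 0.0448), with 0.825% of all genes called. A test of whether the response to alectinib differed between hosts called 0 members (0.021% of all genes), with 7 at an unadjusted p below 0.05 and 0 by voom. The lowest was Gpihbp1, whose responses at 2 weeks differed by 1.77 on the log2 scale (adjusted p = 0.63).

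The tumour cells' own table held the human counterparts of the ligands, in 4 NSG libraries of each condition and in 3 naive, 4 2-week and 3 6-week hHGF-NSG libraries. Of 14 human angiogenic ligand genes listed, 10 were tested, and in each of the 4 comparisons 7 fell and 2 rose. The share of all tested human genes called was 56.1%, 57.6%, 54.1% and 51.3%, with 28.0%, 28.8%, 26.6% and 25.5% lower and 28.1%, 28.8%, 27.5% and 25.9% higher, so changes in the tumour cells were common. VEGFA was at 19.7, 17.0, 18.9 and 18.2 FPKM in naive NSG tumours, 8.37, 9.75, 8.35 and 7.94 at 2 weeks and 13.8, 10.5, 8.11 and 13.5 at 6 weeks. In hHGF-NSG tumours it was at 23.2, 20.8 and 26.5, then 12.4, 10.4, 17.1 and 9.98 at 2 weeks and 11.8, 13.6 and 14.4 at 6 weeks. Treated libraries lay below naive ones at both times. VEGFA fell by 1.02 (adjusted p = 7.75e-06), 0.67 (adjusted p = 0.000769), 0.88 (adjusted p = 0.000108) and 0.78 (adjusted p = 0.000802).

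APLN and PGF fell in the tumour cells too. APLN was at 3.03, 5.14, 5.35 and 6.11 FPKM in naive NSG tumours and 0.589 to 1.14 at both times of treatment, and at 5.50, 2.62 and 3.65 in naive hHGF-NSG tumours and 0.426 to 1.13 in treated ones. No treated library reached a naive one. APLN fell by 1.70 (adjusted p = 6.79e-08), 1.64 (adjusted p = 1.12e-07), 1.37 (adjusted p = 4e-06) and 1.59 (adjusted p = 1.75e-06), and PGF by 0.47 (adjusted p = 0.0046), 0.83 (adjusted p = 1.86e-05), 0.83 (adjusted p = 5.37e-05) and 0.88 (adjusted p = 6.77e-05). ADM, which encodes the vessel-active peptide adrenomedullin, fell by 5.55, 5.98, 5.96 and 5.66, and mouse Adm by 3.35, 3.07, 2.53 and 2.20. ANGPTL4, a secreted lipase inhibitor, fell by 3.68 to 4.14, and PDGFB, which recruits pericytes, by 2.72 to 3.18. SEMA3C, a guidance ligand, fell by 0.35 to 1.04. VEGFC and the chemokine CXCL12 were the 2 that rose, VEGFC by 0.69, 0.87, 0.75 and 0.68, whereas stromal Vegfc was not called. VEGFB was not called. For mouse Angptl4 and Pdgfb, reads relative to library size overlapped between naive and 2-week libraries of each host. At 6 weeks they overlapped in NSG hosts, whereas in hHGF-NSG hosts Angptl4 lay above the naive libraries and Pdgfb below them. Mouse Sema3c lay below the naive libraries of each host at both times. These mouse genes were added after their values were seen.

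The region just before the start of APLN is shown because this ligand fell in both the stroma and the tumour cells. It is 250 bases of GRCh38.p14 from RefSeq, chrX:129654957-129655206 on the minus strand, with capitals at ACGTG or GCGTG, the core letters bound by hypoxia-inducible factors, on either strand.

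APLN upstream region: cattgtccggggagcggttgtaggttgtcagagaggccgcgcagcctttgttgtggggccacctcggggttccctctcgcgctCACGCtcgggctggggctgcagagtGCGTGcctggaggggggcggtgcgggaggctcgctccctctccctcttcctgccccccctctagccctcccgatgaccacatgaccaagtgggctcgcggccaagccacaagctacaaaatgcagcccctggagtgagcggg

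The search found 2 matches, both of GCGTG and 1 of them on the opposite strand, and 43.2% of 35116 such upstream regions hold at least 1. A match describes these letters and is not a measured binding site.

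**Figure D5:**
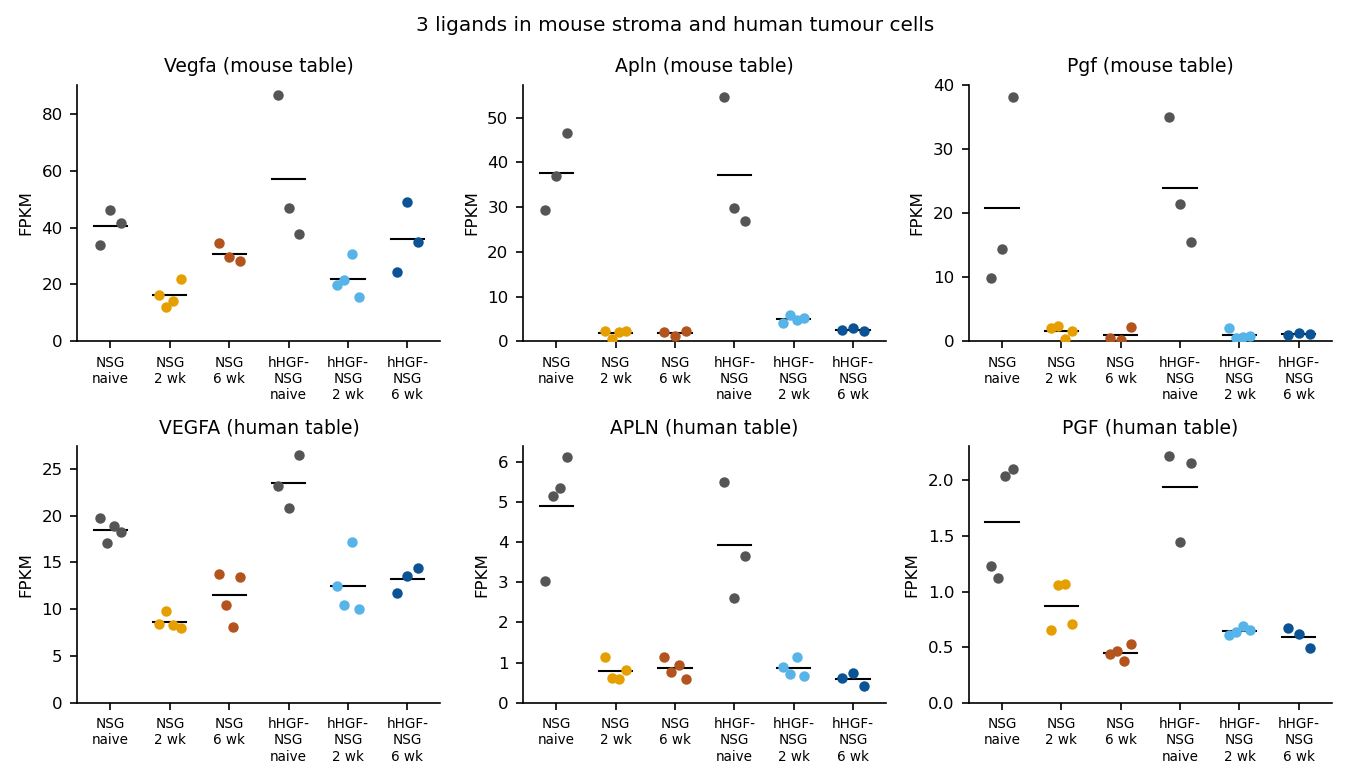
FPKM of Vegfa, Apln and Pgf in each mouse library and of VEGFA, APLN and PGF in each human library (points, libraries; bars, group means; each axis starts at 0 and has its own scale). APLN and PGF are low in every treated library of both tables, while mouse Vegfa at 6 weeks overlaps naive libraries.

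Human KDR had reads in every library of the human table and rose in 3 of the 4 comparisons. It rose by 0.94 (adjusted p = 0.00494) and 1.56 (adjusted p = 4.12e-05) in NSG hosts and by 0.82 (adjusted p = 0.0304) in hHGF-NSG hosts at 6 weeks, with 0.07 (adjusted p = 0.865) at 2 weeks. The hHGF-NSG 6-week call was lost without hHGF-NSG 6 weeks replicate 2 or 3 or hHGF-NSG naive replicate 1 or 2, with adjusted p of up to 0.125. Reads of other endothelial genes in the human table varied by gene. Over all libraries PECAM1 had 32 reads there against 12046 Pecam1 reads in the mouse table, and CD34 had 1 against 10590, whereas CDH5 had 3696 against 11239. CDH5 was at 1.24 to 3.32 FPKM per human library and fell by 0.56, 0.49 and 0.32 in the first 3 comparisons (adjusted p = 0.000214, 0.000785 and 0.0288), the third lost without any of 4 hHGF-NSG libraries, namely 2 weeks replicate 1 or 2 or naive replicate 2 or 3 (adjusted p of up to 0.122). The change at 6 weeks in hHGF-NSG hosts was -0.23 (adjusted p = 0.15), called without naive replicate 1 of that host (adjusted p = 0.0478). VWF, at 0.366 to 1.65 FPKM, rose by 0.54 (adjusted p = 0.00149) in NSG hosts at 2 weeks and by 0.67 (adjusted p = 0.000487) and 0.38 (adjusted p = 0.0393) in hHGF-NSG hosts. The last of these was lost without 6 weeks replicate 1 or 2 or naive replicate 1 or 2 of that host (adjusted p of up to 0.145), and in NSG hosts at 6 weeks VWF was at 0.20 (adjusted p = 0.19).

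Further genes of vessels and angiogenesis, outside the members, were listed with results of these data known. Of 31 tested angiogenic genes, 10 fell at 2 weeks and 16 fell and 2 rose at 6 weeks in NSG hosts. In hHGF-NSG hosts 11 fell and 3 rose at 2 weeks, and 14 fell and 4 rose at 6 weeks. Beside this list and those below, 4.48%, 8.59%, 3.56% and 8.12% of all tested mouse genes were lower in the 4 comparisons. The shares called higher were 3.32%, 8.81%, 3.49% and 9.67%. Col4a1, a chain of basement membrane collagen, changed by -1.45, -2.44, -1.01 and -1.50, and Nid2, another basement membrane protein, by -1.49, -2.54, -1.19 and -1.42, all called. Hspg2 and Lama4, which also encode basement membrane proteins, were at -0.20, -0.97, -0.17 and -0.62 and at -0.44, -0.60, -0.45 and -0.51. Of these, Lama4 was called in both 6-week comparisons and Hspg2 in NSG hosts at 6 weeks, and each of these calls was lost without single libraries, with adjusted p of up to 0.171 for Lama4 and 0.17 for Hspg2. Vegfb, a VEGFR1 ligand, rose by 1.17 in NSG hosts at 6 weeks and by 0.87 and 1.68 in hHGF-NSG hosts. Of 28 tested further endothelial genes, 7, 8, 3 and 2 fell and 2, 2, 2 and 3 rose. In hHGF-NSG hosts at 6 weeks these calls lay near the share of all genes, so no fall of this list stood out there. Cd93, a receptor of endothelial and myeloid cells, fell by 1.10, 1.59, 1.16 and 1.55, and Thbd, thrombomodulin, rose by 0.99, 0.91 and 0.68 in NSG hosts and in hHGF-NSG hosts at 6 weeks.

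Of 16 arterial, venous and capillary genes, 1 fell in NSG hosts at 2 weeks and 6 rose and 3 fell at 6 weeks. In hHGF-NSG hosts 1 rose at 2 weeks, and 7 rose and 1 fell at 6 weeks. The 2-week counts lay near the share of all genes called. Those that rose at 6 weeks included the lipid-handling genes Fabp4 (2.85 and 2.60), Lpl (2.99 and 2.58) and Cd36 (2.35 and 2.38), which fat cells express as well. The arterial ligand Efnb2 fell by 0.70, 1.86 and 1.43 in NSG hosts and in hHGF-NSG hosts at 6 weeks, and by 0.61 in hHGF-NSG hosts at 2 weeks without being called (adjusted p = 0.067).

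Markers of some other cell types moved with these groups. In NSG hosts the summed FPKM of macrophage markers was 5052 to 5126 in naive tumours, 4067 to 4698 at 2 weeks and 4977 to 6286 at 6 weeks. The hHGF-NSG ranges were 3808 to 5751, then 3185 to 5602, then 4124 to 5324. Sums of fibroblast and of lymphatic markers overlapped naive ones except in hHGF-NSG hosts at 6 weeks, where they were lower. All 10 adipocyte markers were called higher at 6 weeks in both hosts. In NSG hosts their summed FPKM ranged from 594.2 to 2284 in naive tumours, from 1381 to 2814 at 2 weeks and from 6706 to 8137 at 6 weeks. The hHGF-NSG ranges were 924.4 to 2944, then 2151 to 9189, then 8838 to 16740. Of 12 pericyte markers 6, 8, 4 and 6 fell and 0 rose. Their summed FPKM was 765.9 to 1248 in naive libraries, 414.7 to 945.8 at 2 weeks and 278.8 to 393.5 at 6 weeks. Acta2 had the most reads of this list in every naive library. Pdgfrb, in the same list, overlapped between naive and treated libraries of each host in reads relative to library size. Of 10 stromal proliferation genes 4, 9, 7 and 8 fell. Among 12 hypoxia-response genes, 10 fell at 2 weeks in each host, whereas at 6 weeks it was 5 in NSG and 6 in hHGF-NSG hosts. Some of these 12 are also members or stand in the lists above, so this count is not separate from theirs. Slc2a1, the glucose transporter GLUT1, fell by 2.09, 2.11, 2.08 and 2.02, whereas Bnip3, a mitophagy receptor, fell by 1.98 and 1.26 at 2 weeks and was at 0.15 and 0.26 at 6 weeks. The part of these cell types and of hypoxia in the changes of the endothelial genes was not tested.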

How the data were processed

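RNA of tumour tissue was sequenced, and the submitters' processing notes name hg38 and mm10 as builds. How reads were aligned, counted and assigned to a species was not given in the sources used here. Per the file headers, the authors deposited FPKM values for each gene beside its length. Reads were recovered from FPKM and length and rounded to whole numbers. Of the values checked, which left out genes with the most reads, 100% lay within 0.05 of a whole read. Recovered reads were 10688632 to 19065656 human and 895826 to 5766509 mouse per library. A gene entered the test with FPKM of 1 or higher in 3 libraries or more. Values were log2(FPKM + 1), a pseudocount of 1, which understates changes of low genes.

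The model was limma 3.58.1 (R 4.3.3) with a mean for each group, all libraries of a table together and a mean-variance trend. P-values are two-sided and were adjusted by Benjamini-Hochberg over all 14287 mouse or 16029 human genes tested; the threshold was 0.05. In simulated libraries for NSG 2 weeks against naive, 91% of 4-fold and 18% of 2-fold changes were called among 13673 genes. Each fold was given to 100 genes, with the same dispersion for all genes, whereas 1115 genes were called in the real comparison. The adjustment is stricter where fewer genes change, so these shares do not give the power of the real test. The members and gene lists were chosen with earlier results of these data known.

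Members given with all their values are 11 fixed genes, those called with the smallest adjusted p (up to 14 called members were considered), and Cldn5 and Angpt1, which were added after their values were seen, as were the remarks on Tie1, Robo4, Ackr1, Vcam1, Vegfd, Notch4, Pdpn, Efnb2, Thbd, Bnip3, Hspg2 and Lama4. Of other lists, up to 4 genes with the largest called changes were named. Alternatives were a pseudocount of 0.1, no filter, median-ratio rescaling, the replicate number as a block, voom on recovered reads, a shift by 8 endothelial genes, and leaving out each library.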

Additional observations from a re-analysis of the deposited data

Results flagged for a closer look

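In 112 groups of 4 libraries and more, 3 values stood far from the rest of their group, where chance flags about 1 group in 20. Mouse Apln was at 0.489 FPKM in NSG 2 weeks replicate 2, below the other 3 libraries of that group at 2.01 to 2.32. Human ADM was at 1.88 FPKM in NSG 2 weeks replicate 1, above the others at 0.497 to 0.65. It was also at 1.33 FPKM in NSG 6 weeks replicate 4, above the others at 0.0568 to 0.241. All 3 values lay far below the naive libraries.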

How the results depend on the processing

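Of 53 calls of named members, 29 held under all 26 settings run for mouse genes, and no result changed direction while called. The number of members called moved beyond 1.5 times its value in few settings. For NSG 6 against 2 weeks it was 2 with no filter; for hHGF-NSG 6 against 2 weeks it was 1 with voom; and for hHGF-NSG against NSG at 2 weeks it was 0 with voom, median-ratio rescaling, no filter, a pseudocount of 0.1, the 8-gene shift or the replicate block. With a pseudocount of 0.1 the tip-cell minus quiescent difference was -1.82 and -2.31 in NSG and -2.57 in hHGF-NSG hosts at 6 weeks. The causes were not tested.

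When 1 library was left out, the members called ran from 12 to 16, 18 to 21, 5 to 11 and 8 to 13 in the 4 comparisons against naive, 0 to 6 and 0 to 1 between times, and 0 to 1, 0 to 1 and 0 to 0 between hosts; the human ligand counts ran from 8 to 10. The tip-cell minus quiescent difference ran from -1.62 to -1.30, -1.86 to -1.54, -1.82 to -1.48 and -2.38 to -2.04.

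Replicate numbers did not pair the samples: deviations of same-numbered mouse libraries had a median correlation of -0.01 (-0.13 to 0.11). With the replicate number as a block, 15, 19, 10 and 12 members were called against naive, 4 and 0 between times and 0 between hosts. The calls of Gpihbp1 in NSG hosts at 6 weeks (-0.91, adjusted p = 0.0803 by limma), Plvap in NSG hosts at 2 weeks (-0.61, adjusted p = 0.0821) and Apln between hosts at 2 weeks (1.18, adjusted p = 0.0545) did not pass with the block. The planned TMM scaling was not run; voom used the library sizes behind the FPKM and called 899, 2217, 843 and 2809 mouse genes against naive. Depth limits Esm1, Apln and Pgf in treated libraries, with as few as 1 to 4 reads. A count of 0 reads would still allow an expected count of up to 3.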
